A study of Ovis aries with 18 samples.

Results

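The genes described here are 9 writers and erasers of DNA methylation, or proteins that work with them: DNMT1, DNMT3A, DNMT3B, UHRF1, TET1, TET2, TET3, TDG and MBD3. They were chosen by name for their role in the pathway, and 8 of them had an entry among the 20092 genes counted. All 8 were among the 16488 genes that passed the filter on low counts, at least 15 counts in at least 4 pools, while DNMT1 was not analysed here.

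In vertebrate DNA, a methyl group on the cytosine of a CpG site is placed by de novo methyltransferases and copied onto the new strand after replication by the maintenance methyltransferase and its partner UHRF1. TET dioxygenases oxidise the methyl group, and the oxidised base is either lost as cells divide or cut out by TDG and replaced through base excision repair. In mammalian preimplantation embryos much of the methylation inherited from the gametes is removed before the blastocyst forms, and new methylation is laid down around implantation.

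The study asked whether methionine in the diet of young rams changes gene expression in the embryos that they sire. Polypay control rams (Ram410, Ram423 and Ram444) received a basal diet, while the methionine-treated rams, labelled Ram424, Ram498 and Ram511, received the same diet with 0.22% (1.5 g) of rumen-protected methionine, which escapes breakdown by rumen microbes. Feeding lasted 77 days from a mean age of 88 days, and superovulated Polypay ewes mated later with these rams were flushed 8 days after the rams were let in. Embryos labelled as blastocysts (inner cell mass and trophectoderm) were combined by sire and dam into 12 pools of 5, from which amplified RNA was sequenced. Each control ram sired 2 pools, Ram424 sired 4 pools, and Ram498 and Ram511 sired 1 pool each, so the methionine group is largely the offspring of a single ram. Pools are named here by ram and pool number, such as Embryo424_1. Total counts were 1173289 to 1554651 in the 6 control pools and 1017847 to 2398589 in the 6 methionine pools. Pools of a ram share a sire, so p-values over pools measure the spread between pools more than that between rams.

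A pair of pools stood apart from the rest and went against the blastocyst label. Control pool Embryo444_2 and methionine pool Embryo511_1 had median Spearman correlations with the other pools of 0.582 and 0.600, whereas the other 10 pools had 0.820 to 0.857. Of 8 trophectoderm markers 7 were measured, and all 7 were lower in each of these pools than in any of the 10. Their summed level was 205 CPM (counts scaled to library size) in Embryo444_2 and 144 CPM in Embryo511_1, against 5181 to 14411 CPM (median 8505) in the 10 pools. KRT8, the keratin that was the most abundant of these markers, was at 116 and 42.6 CPM against 3893 to 11862 CPM. None of the 7 was at a count of 0 in either pool.

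Markers of the other embryonic lineages were reduced in part. The 4 measured epiblast markers summed to 142 CPM in Embryo444_2 and 297 CPM in Embryo511_1, against 434 to 1227 CPM in the 10 pools, with SALL4 the most abundant. The 5 measured hypoblast markers summed to 273 and 289 CPM, against 419 to 961 CPM. Their most abundant gene, GATA6, was at 38.9 CPM in Embryo444_2 and 66.4 CPM in Embryo511_1, below its range of 249 to 801 CPM in the 10 pools. Other markers of these lists went the opposite way. PRDM14 (43.9 and 83.3 CPM, against 14.5 to 37.9 CPM) and FOXA2 (39.6 and 13.9 CPM, against 0.71 to 9.21 CPM) were above the 10 pools in both, GATA4 was above them in Embryo511_1 and PDGFRA in Embryo444_2. SOX17 was at a count of 0 in Embryo511_1, which allows up to 2.97 CPM, a limit above its median of 1.98 CPM in the 10 pools, so no difference was detectable at this depth.

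The summed level of oocyte and maternal markers was high in Embryo511_1 only. The 7 measured genes summed to 874 CPM in Embryo511_1 and to 195 CPM in Embryo444_2, and the 10 pools had 150 to 216 CPM. ZP2, an egg coat protein gene with the highest mean CPM of the list over the 12 pools, was at 205 CPM in Embryo511_1, and ZP3 was at 410.4 CPM, against 27.9 to 54.5 and 9.21 to 26.8 CPM in the 10 pools, and KPNA7, ZP4 and NLRP5 were also above all 10 there. In Embryo444_2, ZP3 (27.6 CPM), KPNA7 (48.1 CPM) and WEE2 (50.3 CPM) were also above all 10 pools. ZAR1 was at a count of 0 in Embryo511_1 and at 3.54 CPM in Embryo444_2, both below its 4.96 to 19.6 CPM in the 10 pools. The 2 measured blood genes, led by PTPRC, summed to 127 CPM in Embryo444_2 and 256 CPM in Embryo511_1, against 58.9 to 96.9 CPM. This came from PTPRC alone, since CD68 was below the 10 pools in both, at 6.37 and 1.98 CPM against 8.60 to 38.8 CPM. The 3 measured uterine and oviduct genes, led by ESR1, summed to 117 and 77.3 CPM against 54.3 to 97.0 CPM, with MUC1 the one above the 10 pools in Embryo444_2 (53.1 CPM, against 8.85 to 17.5 CPM). The 3 measured cumulus and granulosa genes, led by HAS2, summed to 161 and 75.3 CPM against 52.9 to 95.4 CPM, with HAS2 above the 10 pools in Embryo444_2 (106 CPM, against 35.0 to 66.8 CPM) and TNFAIP6 above them in both (46.7 and 36.7 CPM, against 6.62 to 23.4 CPM), while PTX3 was below them in Embryo511_1 (2.97 CPM, against 4.23 to 17.3 CPM). Differences by diet are therefore given below with all 12 pools and with the 10 pools. What part the make-up of these pools played in the levels of the methylation genes was not tested, and in pooled embryos fewer cells of a type cannot be told apart from less RNA per cell. These 2 pools also had the lowest total counts, 1173289 in Embryo444_2 and 1017847 in Embryo511_1, against 1326354 to 2398589 in the 10 pools. Their 10 most counted genes held 0.875% and 2.26% of all counts, against 2.97% to 5.29% in the 10 pools. The part of depth and library quality in these levels was not tested either.

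None of the 8 measured genes differed between sire diets by the edgeR quasi-likelihood test at an FDR under 0.05, with all 12 pools or with the 10 pools. In all 12 pools this test called 0% of the 16488 genes, and 0 of the 8 had an unadjusted p under 0.05, against 7.92% of all genes (1306). DESeq2 called 16 genes and the likelihood-ratio fit 5 (C20H6orf136, CERS1, HRC, LOC114111604 and UNC93A, named after their values were seen), and none of the 8 was among them. In the 10 pools 1 gene in all was called by edgeR (MROH5, also named after its value was seen), 0.00619% of the 16161 genes tested, and 11.9% (1925) had an unadjusted p under 0.05. TET1 and TET3 were 2 of those, with TET1 higher and TET3 lower in the methionine pools. With the ram as a random effect in limma-voom 1 of the 8 (TET3) had an unadjusted p under 0.05 in the 10 pools, against 1096 of the 16161 genes. With the pools of each ram summed 0 of the 8 had, against 744 of the 16161 genes. Separation of the diets without overlap was seen for 0 of the 8 genes in the 12 pools and 0 of 8 in the 10 pools, against 0.352% and 1.76% of all genes.

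**Figure D1:**
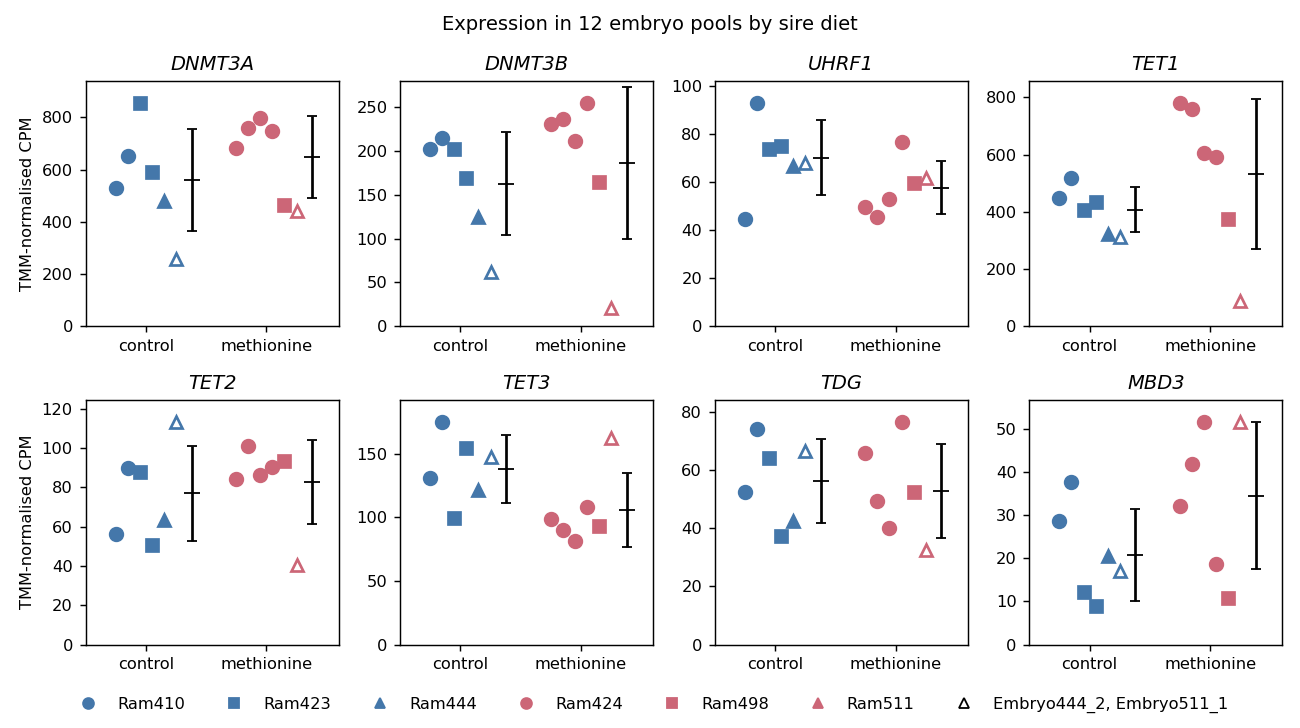
Normalised expression in CPM (vertical axis, from 0) of the 8 measured genes in each of the 12 embryo pools, by sire diet; symbols stand for the sire, open symbols for pools Embryo444_2 and Embryo511_1, and black bars for the mean and SD of the 6 pools of a diet. The 4 pools of Ram424 have the highest TET1 levels, and pool Embryo511_1 has the lowest DNMT3B and TET1 levels.

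DNMT3A, a de novo methyltransferase, was measured at 529.8 and 651 CPM in the pools of control Ram410, 854 and 589.6 CPM in those of Ram423, and 479 and 257 CPM in those of Ram444. In the methionine group it was at 683, 761, 798 and 748 CPM in the pools of Ram424, 462 CPM in Embryo498_1 and 440.2 CPM in Embryo511_1. The pools of Ram424 were alike and high, those of the other methionine rams lay at the low end of the control pools, and the diets overlapped. The mean was 560.1 ± 198 CPM (SD, n = 6) in control and 649 ± 157 CPM (SD, n = 6) in methionine pools. The log2 difference, methionine minus control, was 0.21 ± 0.38 (SE; edgeR FDR = 0.905) with 12 pools and 0.14 ± 0.24 (FDR = 0.848) with 10. Without Ram424 the difference was -0.30, and without Ram444 it was -0.02. With the pools of each ram summed it was 0.005 over 12 pools and 0.03 over the 10.

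DNMT3B, the other de novo methyltransferase, was at 202 and 215 CPM in the pools of Ram410, 203 and 169 CPM in those of Ram423, and 125 and 62.3 CPM in those of Ram444. Those of Ram424 had 231, 237, 212 and 255 CPM, Embryo498_1 had 165 CPM and Embryo511_1 had 20.8 CPM. Pool Embryo511_1, with 21 counts (95% Wilson interval 13.6 to 31.8 CPM), and Embryo444_2 (50.6 to 76.7 CPM) were the lowest of all, against a median of 207 CPM in the 10 pools. These intervals cover counting error only, since the RNA was amplified and copies of a molecule cannot be told from separate molecules. The log2 difference was 0.20 ± 0.44 (edgeR FDR = 0.926) with 12 pools and 0.26 ± 0.21 (FDR = 0.655) with 10. Its sign turned without Ram424 (-0.79) and without Ram444 (-0.08). The sign also turned with the pools of each ram summed (-0.17) and with the ram as a random effect (-0.40). Over the 10 pools the difference was 0.23 with those of a ram summed and 0.25 with the random effect.

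The 2 de novo enzymes did not move together in pool Embryo511_1. The ratio of DNMT3A counts to DNMT3B counts within a pool was 2.62 to 4.21 (median 3.49) in the 5 control pools of the 10, and 2.80 to 3.77 (median 2.95) in the 5 methionine pools. Pool Embryo444_2 lay inside this range at 4.12 (95% interval 3.27 to 5.20), with both genes low. In Embryo511_1 the ratio was 21.1 (13.7 to 32.6), since DNMT3B was far lower there while DNMT3A was at 0.660 of its median in the 10 pools. Within a pool this ratio does not depend on the scaling of libraries. It compares counts, not numbers of transcripts, because the lengths of the gene models were not used here. The pair to compare was chosen after the values were seen.

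UHRF1, which reads hemimethylated CpG sites and brings the maintenance enzyme to them, had the smallest range in CPM of the 8 genes, highest over lowest pool, across the 12 pools. It was at 44.4 and 92.8 CPM in the pools of Ram410, 73.6 and 75.1 CPM in those of Ram423, and 66.7 and 68.0 CPM in those of Ram444. Among methionine pools, those of Ram424 had 49.7, 45.3, 52.9 and 76.7 CPM, Embryo498_1 had 59.6 CPM and Embryo511_1 had 61.5 CPM. The highest pool was 2.09-fold above the lowest, both were sired by control Ram410, and the 2 pools that stood apart lay near the middle. Within the 10 pools the range was the same, and that of DNMT3A was smaller, at 1.85-fold. By CPM the blood gene PTPRC was at a like level in the 10 pools (40.2 to 76.5 CPM). Any background in these amplified libraries was not tested. The log2 difference was -0.28 ± 0.23 (edgeR FDR = 0.758) with 12 pools and -0.32 ± 0.23 (FDR = 0.611) with 10, and it was negative under all 26 alternatives tried (-0.38 to -0.19).

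Among the erasers, TET1, a dioxygenase known for its expression in pluripotent cells, had the clearest pattern by sire. It was at 448 and 519 CPM in the pools of Ram410, 407 and 432 CPM in those of Ram423, and 322 and 311 CPM in those of Ram444. In the methionine group, those of Ram424 had 779, 759.8, 606 and 590.4 CPM, Embryo498_1 had 376 CPM and Embryo511_1 had 87.2 CPM (88 counts, 95% interval 70.8 to 107). All 4 pools of Ram424 were above every control pool, while the pools of the other 2 methionine rams were not. TET1 alone of the 8 genes had all 4 pools of Ram424 above the 5 control pools of the 10, which held for 3.04% of all genes, and 0 of the 8 had them all below, against 2.15%. This comparison was chosen after the values were seen. It counts Embryo424_1 and Embryo424_2 as separate pools, as labelled, though they were the most alike pair of a ram across genes (Spearman 0.955).

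The log2 difference of TET1 was 0.39 ± 0.44 (edgeR FDR = 0.834) with 12 pools and 0.53 ± 0.24 (FDR = 0.391) with 10. With the pools of each ram summed it was -0.06 over 12 pools and 0.39 ± 0.38 over the 10. With the ram as a random effect it was -0.38 over 12 pools and 0.47 over the 10, and without Ram424 it was -0.81. The FDR was at least 0.391 over the alternatives.

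TET2, a dioxygenase without the DNA-binding CXXC domain of the other TET proteins' longest forms, was at 56.4 and 89.9 CPM in the pools of Ram410, 87.9 and 50.7 CPM in those of Ram423, and 63.2 and 113 CPM in those of Ram444. The pools of Ram424 had 84.1, 101, 86.1 and 90.5 CPM, Embryo498_1 had 93.3 CPM and Embryo511_1 had 40.6 CPM. The highest and the lowest level of all 12 pools were thus those of Embryo444_2 and Embryo511_1, in opposite directions. The 5 methionine pools of the 10 were close together (SD 6.57 CPM), and the control pools were spread more widely (SD 18.2 CPM). The log2 difference was 0.11 ± 0.27 (edgeR FDR = 0.936) with 12 pools and 0.38 ± 0.21 (FDR = 0.492) with 10, and it was -0.19 without Ram424. With the pools of each ram summed it was 0.007 over 12 pools and 0.44 over the 10.

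TET3, the dioxygenase stored in the egg that oxidises the paternal genome after fertilisation in the mouse, was at 131 and 175 CPM in the pools of Ram410, 99.3 and 154 CPM in those of Ram423, and 121 and 147 CPM in those of Ram444. Methionine Ram424 pools had 98.9, 90.0, 81.2 and 108 CPM, Embryo498_1 had 93.3 CPM and Embryo511_1 had 163 CPM. Of the 5 methionine pools of the 10, all but Embryo424_4 were below every control pool, and the overlap came from Embryo423_1. Embryo424_1 was only level with Embryo423_1 (98.9 and 99.3 CPM). The log2 difference was -0.39 ± 0.24 (edgeR FDR = 0.703) with 12 pools and -0.54 ± 0.20 (FDR = 0.332) with 10. It was negative under all 26 alternatives, nearest to 0 without Ram424 (-0.11), and over the 10 pools with those of a ram summed it was -0.49 ± 0.28.

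The balance of TET1 to TET3 within a pool differed among sires, again a pair chosen after the values were seen and given without a test. The ratio of TET1 counts to TET3 counts was 2.65 to 4.10 (median 2.97) in the 5 control pools of the 10. In the pools of Ram424 it was 7.88, 8.44, 7.46 and 5.48, and in Embryo498_1 it was 4.03 (95% interval 3.38 to 4.80), inside the control range. It was 2.11 (1.79 to 2.49) in Embryo444_2 and 0.537 (0.414 to 0.695) in Embryo511_1. The highest ratios were thus those of Ram424 and the lowest were those of the 2 pools that stood apart.

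TDG, the glycosylase that removes oxidised methylcytosine, was at 52.7 and 74.4 CPM in the pools of Ram410, 64.3 and 37.2 CPM in those of Ram423, and 42.6 and 66.5 CPM in those of Ram444. Pools of Ram424 had 66.0, 49.3, 40.2 and 76.7 CPM, Embryo498_1 had 52.4 CPM and Embryo511_1 had 32.7 CPM. The ranges of the diets were nearly the same, and pools of the same ram differed as much as pools of different rams. The log2 difference was -0.08 ± 0.26 (edgeR FDR = 0.954) with 12 pools and 0.07 ± 0.25 (FDR = 0.942) with 10.

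MBD3, a subunit of the NuRD chromatin remodelling and deacetylase complex, was at 28.6 and 37.5 CPM in the pools of Ram410, 12.1 and 8.98 CPM in those of Ram423, and 20.6 and 17.0 CPM in those of Ram444. The pools of Ram424 had 32.0, 41.9, 51.5 and 18.7 CPM, Embryo498_1 had 10.8 CPM and Embryo511_1 had 51.6 CPM. This was the most thinly counted of the 8 genes, with 14 to 74 counts a pool, and its levels differed up to 5.74-fold between pools. The lowest level, in Embryo423_2, had a 95% interval of 5.35 to 15.1 CPM. The log2 difference was 0.72 ± 0.42 (edgeR FDR = 0.686) with 12 pools and 0.51 ± 0.43 (FDR = 0.666) with 10. It was 0.41 without Ram423, 1.22 without Ram410 and 0.15 over the 10 pools with those of a ram summed, with an FDR of at least 0.546 over the alternatives.

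**Figure D2:**
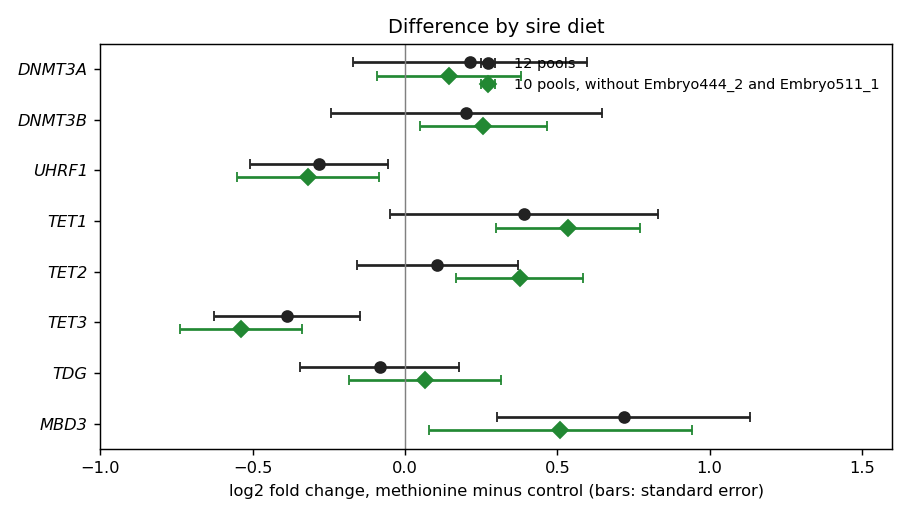
Log2 fold change between sire diets, methionine minus control (horizontal axis), for the 8 genes with all 12 pools (circles) and with the 10 pools (diamonds); bars are standard errors. TET1 lies at 0.53 and TET3 at -0.54 with the 10 pools, and TDG is the gene whose sign turns between the fits.

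The 2 pools that stood apart had low levels of several of these genes, though not of all. In Embryo444_2, DNMT3A, DNMT3B and TET1 were lower than in any of the 10 pools, which is 3 of 8 against 24.6% of all genes, and TET2 was higher than in any, which is 1 of 8 against 22.0% of all genes. In Embryo511_1 the same 3 genes and also TET2 and TDG were lower, which is 5 of 8 against 26.6% of all genes. MBD3 was the 1 of 8 that was higher, against 24.9% of all genes, but only level with Embryo424_3 (51.6 and 51.5 CPM). UHRF1 and TET3 lay inside the range of the 10 pools in both. For Embryo444_2, 3 and 1 of only 8 genes are near the shares over all genes, so they show nothing particular to the methylation genes. For Embryo511_1 the 5 of 8 were not tested against the share over all genes. The levels in Embryo444_2 relative to the median of the 10 pools were 0.385 for DNMT3A, 0.642 for TET1 and 1.42 for TET3. In Embryo511_1 they were 0.180 for TET1, 0.467 for TET2, 1.57 for TET3 and 2.10 for MBD3.

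**Figure D3:**
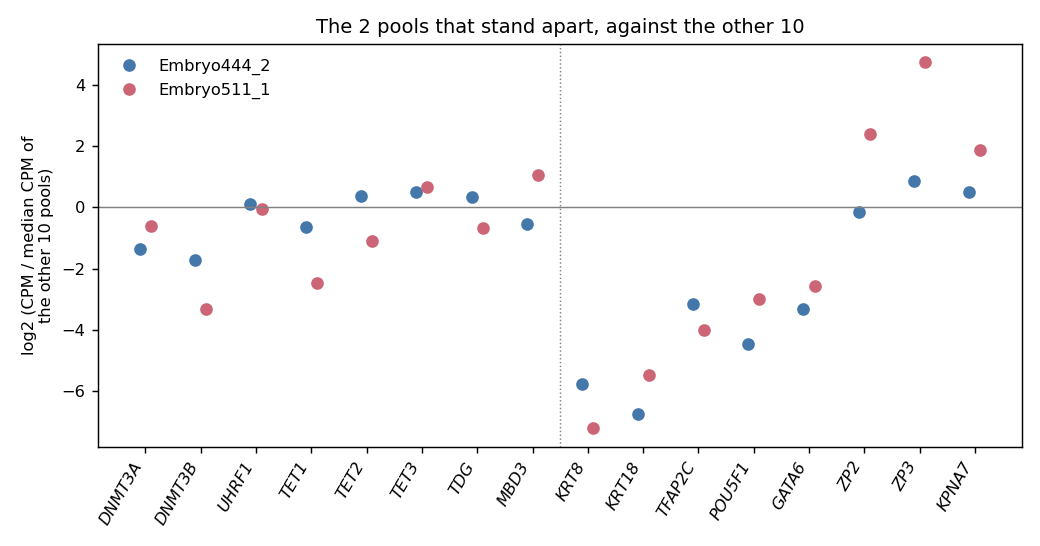
Level in pools Embryo444_2 and Embryo511_1 relative to the median of the other 10 pools, as log2 of the ratio (vertical axis), for the 8 methylation genes (left of the dotted line) and for lineage and egg markers (right). DNMT3B, TET1, KRT8, KRT18, TFAP2C, POU5F1 and GATA6 are low in both pools, and ZP3 is high in Embryo511_1. The markers shown are only part of the lists and most were picked after their values were seen. Of those not shown, PRDM14 and FOXA2 were above the other 10 pools in both, GATA4 in Embryo511_1 and PDGFRA in Embryo444_2.

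The genes also differed in where their spread lay among the 10 pools. For TET1 the SD of log2 levels was 0.18 between pools of a ram and 0.41 between the means of the 5 rams, and for DNMT3B it was 0.12 and 0.34. For DNMT3A it was 0.21 and 0.32. UHRF1, TDG and TET2 showed the opposite order, with 0.42, 0.43 and 0.34 between pools of a ram and 0.16, 0.21 and 0.25 between ram means. For TET3 the values were close, at 0.27 and 0.29, and for MBD3 both were large, at 0.51 and 0.78. The SD between pools of a ram rests on the 3 rams with more than 1 of the 10 pools. It includes Embryo424_1 and Embryo424_2, the most alike pair across genes (Spearman 0.955). The means of Ram444 and Ram498 are single pools here, so the SD between rams includes spread between pools. Embryos were also combined by dam, which was left out of the fits, so differences by sire and by dam cannot be told apart.

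DNMT3B and TET1 followed each other closely. Over the 10 pools Pearson's r of log2(CPM + 1) was 0.838 (permutation p = 0.0015, adjusted p = 0.0420 over 28 pairs) and Spearman's rho was 0.855 (permutation p = 0.00287, adjusted p = 0.0804). Without the 2 pools farthest from the median of DNMT3B, r was 0.715, and with all 12 pools it was 0.937. The 10 pools come from 5 rams, of which Ram424 sired 4 pools, so they are not independent. Over the means of the 6 rams r was 0.979 (exact permutation p = 0.00139 over 720 pairings, adjusted p = 0.0389). Ram511 enters there by Embryo511_1 alone, and the mean of Ram444 includes Embryo444_2. Of the other 27 pairs, none had an adjusted p under 0.05 for r over the 10 pools. DNMT3A and DNMT3B had r = 0.740 (permutation p = 0.0116, adjusted p = 0.163), which was 0.442 without the 2 farthest pools, 0.682 with all 12 pools and 0.608 over the ram means. TET1 and MBD3 had r = 0.649 (permutation p = 0.0458, adjusted p = 0.344), but the sign turned with all 12 pools (-0.045) and over the ram means (-0.408).

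Among 13779 other named genes with a mean of at least 10 CPM, those most like each member over the 12 pools are given as a description, and r within the 10 pools is given beside it. The 2 pools that stood apart enter r over the 12 pools, and their weight in it was not computed. DNMT3B was most like C14H16orf87 and POLDIP2 (r = 0.979 and 0.976), with r = 0.741 and 0.829 within the 10 pools. For TET1 these were DNM1L and ATN1 (r = 0.980 and 0.977), with 0.911 and 0.892 within the 10. For DNMT3A they were URM1 and AP1S1 (r = 0.964 and 0.957), with 0.889 and 0.911, and for TET2 they were RFX1 and ESRP1 (r = 0.895 and 0.888), with 0.781 and 0.771. For the other members r changed less between the 12 and the 10 pools. TET3 was most like GON4L and NT5E (r = 0.927 and 0.922, then 0.938 and 0.916), and UHRF1 was most like GYG2 and ATP7A (r = 0.905 and 0.872, then 0.925 and 0.880). TDG was most like MFSD11 and NFS1 (r = 0.912 and 0.903, then 0.934 and 0.892), and MBD3 was most like STYX and TNFAIP8L2 (r = 0.865 and 0.862, then 0.838 and 0.867).

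Partners of these genes were read from 4 lists, with 45 genes measured in all. By the edgeR quasi-likelihood test 0 of the 45 passed an FDR of 0.05 with 12 or 10 pools, and 1 had an unadjusted p under 0.05 with 12 pools and 8 with 10, against 7.92% and 11.9% of all genes. DESeq2 and the likelihood-ratio test called 0 of them. The median log2 difference of the 8 methylation genes was 0.15 with 12 pools and 0.20 with 10, beside 0.01 and -0.03 over all genes tested. Besides the partners described below, PARP1 (0.72 ± 0.24, edgeR FDR = 0.287), PCNA (0.70 ± 0.27, FDR = 0.349), HDAC2 (0.59 ± 0.26, FDR = 0.398) and ZFP57 (-0.77 ± 0.30, FDR = 0.353) were among the 8 with 10 pools, and are named after their values were seen.

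Of the partners in maintenance and de novo methylation, 10 of 11 were measured, 5 were higher in the methionine pools and 5 lower, and the median difference was -0.06 (0.14 with 10 pools). TRIM28, a corepressor that protects methylation at imprinted regions, had the largest positive difference at 1.08 ± 0.55 (edgeR FDR = 0.659). It was at 126 to 169 CPM in the 5 control and 136 to 603 CPM in the 5 methionine pools of the 10, highest in Embryo498_1, and at 26.2 and 25.8 CPM in Embryo444_2 and Embryo511_1. USP7, a deubiquitinase that binds the maintenance machinery, had the largest negative difference at -0.88 ± 0.53 (edgeR FDR = 0.698). It was at 540.4 to 1323 CPM in the control and 367 to 588 CPM in the methionine pools of the 10, and at 132 and 95.2 CPM in Embryo444_2 and Embryo511_1. With the 10 pools the differences were 1.09 ± 0.32 for TRIM28 (edgeR FDR = 0.262) and -0.90 ± 0.28 for USP7 (edgeR FDR = 0.270). Neither gene passed the FDR in either fit.

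Of 18 genes of demethylation and base excision repair, 17 were measured, 10 were higher in the methionine pools, and the median difference was 0.15 (0.09 with 10 pools). The extremes were APEX1, the endonuclease that cuts abasic sites, at 0.84 ± 0.65 (edgeR FDR = 0.752), and GADD45G at -0.48 ± 0.46 (edgeR FDR = 0.800; -0.41 ± 0.44 with the 10 pools, FDR = 0.748). APEX1 was at 9.20 CPM in Embryo444_2 and 4.96 CPM in Embryo511_1, against 71.5 to 164 CPM in the control and 72.3 to 322 CPM in the methionine pools of the 10. With the 10 pools its difference was 0.84 ± 0.36 (edgeR FDR = 0.385).

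The 7 readers of methylated CpG sites had a median difference of 0.03 (-0.03 with 10 pools). MBD2 had the largest positive difference, 0.75 ± 0.47 (edgeR FDR = 0.703), with the highest level, 326 CPM, in Embryo511_1. Without the 2 pools its difference was -0.03 ± 0.25. MBD1 had the largest negative difference, -0.40 ± 0.29 (edgeR FDR = 0.741; -0.31 ± 0.29 with the 10 pools, FDR = 0.696).

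All 12 partners of MBD3 in the NuRD complex were measured, and 11 were higher in the methionine pools, against 8325 of the 16488 genes tested. With the 10 pools 10 were higher, against 7598 of the 16161 genes tested. The pools of the 3 methionine rams differed in this: relative to the control mean of the 10 pools, the mean of the Ram424 pools was higher for 10 of the 12 genes, but Embryo498_1 was lower for 7 and Embryo511_1 for 9. Their median difference was 0.47 (0.31 with 10 pools), and none passed the FDR by edgeR. RBBP7, a histone-binding subunit, had the largest difference at 1.14 ± 0.51 (edgeR FDR = 0.615), and 1.19 ± 0.39 with the 10 pools (edgeR FDR = 0.282). It was at 39.3 to 113 CPM in the control and 68.0 to 252 CPM in the methionine pools of the 10, highest in Embryo424_1, and lowest of all in Embryo444_2 and Embryo511_1 at 24.1 and 15.9 CPM. CHD4, the remodelling ATPase, was the partner with a negative difference at -0.10 ± 0.32 (-0.19 ± 0.22 with the 10 pools). Among the 10 pools the summed trophectoderm markers had medians of 9589 CPM in control and 7299 CPM in methionine pools, the epiblast markers had 849 and 1094 CPM, and their part in the differences by diet was not tested.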

How the data were processed

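RNA sequencing of 12 embryo pools was analysed. Per the study's methods, the authors amplified whole transcriptomes, demultiplexed reads with bcl2fastq, checked them with FastQC, trimmed them with Trimmomatic, aligned them to Oar_rambouillet_v1.0 with STAR and deposited raw counts per gene and pool. Which strand was counted is not given. Groups were the sire's diet and ram in the labels.

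Genes with at least 15 counts in at least 4 pools were kept, library sizes were the counts of these genes, and TMM normalization and quasi-likelihood F tests in edgeR 4.0.16 (R 4.3.3) compared the diets, with Benjamini-Hochberg FDR under 0.05 over all genes tested. The standard error was the log2 difference over the square root of F. The common biological coefficient of variation was 0.450 with 12 pools and 0.338 with 10. Totals of 1017847 to 2398589 counts a pool limit the precision of genes at low levels. The fits were tried on simulated counts of independent pools, without ram effects or pools that stand apart and with planted differences larger than those of the members. This trial does not show how well the fits find small differences in the present design. Pools Embryo424_1 and Embryo424_2 were the most alike of a ram (Spearman 0.955), with a chi-square per degree of freedom of 3.29 against 8.29 to 26.1 in the other pairs. They are labelled as separate pools and were kept as 2, but amplified reads vary by more than counting error, so this value does not show that they are separate.

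Alternatives were the likelihood-ratio test, DESeq2 1.42.0, RLE size factors, no filter or a stricter filter, counts summed by ram, limma 3.58.1 with ram as random effect (estimated correlation 0.263), each pool and ram left out, and both pools that stand apart left out. The last of these combined with summed pools or a random effect was chosen after seeing the data, as were all alternatives for the partner lists, the 10 pools included, the ratios of counts and the comparison of the Ram424 pools with the controls. Correlations used 100000 permutations. Other steps used matplotlib 3.10.9, scipy 1.17.1, pandas 2.3.3 and numpy 2.4.6 in Python 3.11.15.

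The members and lists were chosen with earlier results of these data known. Named genes are the members; in each partner list those with an unadjusted p under 0.05 in the fit with 12 pools and the largest rise and fall; the 2 genes most correlated with each member; and the gene with the highest mean CPM over 12 pools and any at 0 in each marker list. POU5F1, KRT18, TFAP2C, ZP3, ZP4, NLRP5, KPNA7, WEE2, PRDM14, FOXA2, GATA4, PDGFRA, CD68, MUC1, TNFAIP6 and PTX3 were added after their values were seen. Of the partner lists, DPPA3 and IDH1 were not analysed here. Of the markers, GATA3, SOX2, LIN28A, HNF4A, GDF9, BMP15, HBB, LYZ, ITGB2, OVGP1, PAEP, FSHR and CYP19A1 were not analysed here. Sperm methylation at these genes was not analysed, and levels were not compared between genes per length (marker genes are ordered by CPM only), since gene coordinates and transcript lengths of this build were not used here.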

Additional observations from a re-analysis of the deposited data

Results flagged for a closer look

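Among the 16 groups of 6 pools examined (8 genes, 2 diets), 2 had a pool far from the others, and chance alone gives about 1 in 20 groups. TET2 in pool Embryo511_1 was at 40.6 CPM, below the next methionine pool at 84.1 CPM, a gap of 0.723 of the range of the 6 methionine pools. TET3 in the same pool was at 163 CPM, above the next methionine pool at 108 CPM, a gap of 0.675 of the range. Both are in a pool that stood apart across the transcriptome, and its part in these values was not tested.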

How the results depend on the processing

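The 8 genes were refitted under up to 26 alternatives each, 207 fits in all, with the rams that sired a single pool left out once. The direction was kept in 191, none was called, and the smallest FDR was 0.332 (TET3 with 10 pools). UHRF1, TET3 and MBD3 kept their direction in every alternative run, but MBD3 gave no value with at least 15 counts in all 12 pools, a filter that it did not pass. With the pools of each ram summed, the log2 difference was -0.17 for DNMT3B and -0.0558 for TET1, and with the ram as a random effect it was -0.40 and -0.38. These settings give Ram498 and Ram511 more weight. Without the 2 pools that stood apart, the difference of TDG was 0.0652, and 0.0937 with the random effect and 0.119 with summed pools besides, the last 2 settings chosen after seeing the data. The cause of the changed sign was not tested. Leaving out single pools or rams gave -0.30 to 0.45 for DNMT3A, -0.79 to 0.43 for DNMT3B, -0.81 to 0.61 for TET1, -0.19 to 0.25 for TET2 and -0.39 to 0.0192 for TDG. The lowest value in each of these 5 was without Ram424.

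The count of genes called between diets was 0 by the edgeR quasi-likelihood test, with 1306 at an unadjusted p under 0.05. It was 5 by the edgeR likelihood-ratio test, 16 by DESeq2 and 1 without the 2 pools that stood apart, and 0 under the other 23 alternatives. The count of the members and of partner genes called was 0 throughout. By Pearson's r the count of correlated pairs was 1 over the 12 pools, the 10 pools and the ram means, and by Spearman's rho it was 2 over the 12 pools and 0 over the 10 pools (smallest adjusted permutation p 0.0804). Sperm methylation at these genes was planned and not run. With 1 pool each from Ram498 and Ram511, the spread between methionine rams is poorly known, and MBD3, with as few as 14 counts, is limited by depth.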
